A study of Fragaria vesca with 3 samples.

Results

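Genes of light perception, the circadian clock and flowering time were examined for binding by FvSEP3, a SEPALLATA transcription factor with a MADS domain, in woodland strawberry (Fragaria vesca). Binding was measured by DNA affinity purification sequencing (DAP-seq), in which a transcription factor pulls fragments out of purified genomic DNA. The fragments are sequenced and regions of excess reads are called as peaks. The DNA came from wild-type fruit at 30 days post anthesis. There were 2 immunoprecipitation (IP) replicates and 1 input library, and no treatment or genotype was compared. The replicates are labelled as independent biological replicates, and nothing further says what material separated them. As the DNA is purified, the assay does not show which sites the protein reaches in chromatin, nor whether a gene responds.

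The members were the genes in either IP list whose deposited description contained phytochrome, cryptochrome, phototropin, CONSTANS, flowering, GIGANTEA, FRIGIDA, pseudo-response or APRR, and not MADS. This gave 44 genes of the 18238 with any peak. The word CONSTANS matched 9 of them, FRIGIDA 9, phytochrome 8, cryptochrome 2, APRR 3 and flowering 13. Phototropin, GIGANTEA and pseudo-response matched 0 descriptions. A gene without a peak is in neither list, so these 44 are not the whole of any family. By role they were 5 photoreceptors, 5 light signalling partners, 6 clock genes, 9 CONSTANS family genes, 1 FLOWERING LOCUS T gene, 9 FRIGIDA family genes and 9 other flowering-time regulators.

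Plants read day length by setting light signals against an internal clock. Phytochromes sense red and far-red light and cryptochromes sense blue light. In Arabidopsis, the clock and these receptors set the amount and stability of CONSTANS, which turns on FLOWERING LOCUS T, the mobile signal that starts flowering. FRIGIDA and the autonomous pathway act there in opposite directions on FLOWERING LOCUS C, a MADS-box repressor of flowering. SEPALLATA proteins such as SEP3 act later, in floral organ identity, and SEPALLATA relatives are known for roles in the ripening of fleshy fruit. The roles given below are those of the Arabidopsis proteins unless another species is named.

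The replicate 1 list held 19298 peaks and the replicate 2 list 21823. Of these, 54 and 62 were assigned to the 44 genes by the authors. Fold enrichment, the authors' ratio of peak signal to background for each peak, had a median of 3.06 over the member peaks and 3.05 over all peaks in replicate 1. In replicate 2 the medians were 3.13 and 3.004. Member peaks ranged from 2.11 to 4.51 in replicate 1 and from 2.09 to 4.32 in replicate 2, whereas the highest values of the whole lists were 7.21 and 7.56. No read counts were held, so the depth behind each value is unknown. Start and end positions below are those the authors listed; their genome build was not stated in the labels or headers.

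A site was defined as a place where peaks of both lists overlapped by at least 1 bp and were assigned to the same gene. Such sites were found at 29 of the 44 genes (65.9%), against 58.6% of all genes with a peak. The members' share was thus close to that of the lists as a whole. In peaks, 42 of 54 member peaks of replicate 1 (77.8%) lay in a site, against 69.7% of all replicate 1 peaks. In replicate 2 the numbers were 41 of 62 (66.1%) against 61.4%. Altogether there were 41 sites. At 10 genes there were 2 or more of them (22.7%, against 11.7% of all genes), and 2 genes, those of APRR1 and flowering locus T1, had 3 (4.55%, against 2.05% of all genes). No test was run on these shares. With peaks limited to a −log10 q of at least 10, 16 of the 44 genes kept a site (36.4%), against 26.1% of all genes.

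**Figure D1:**
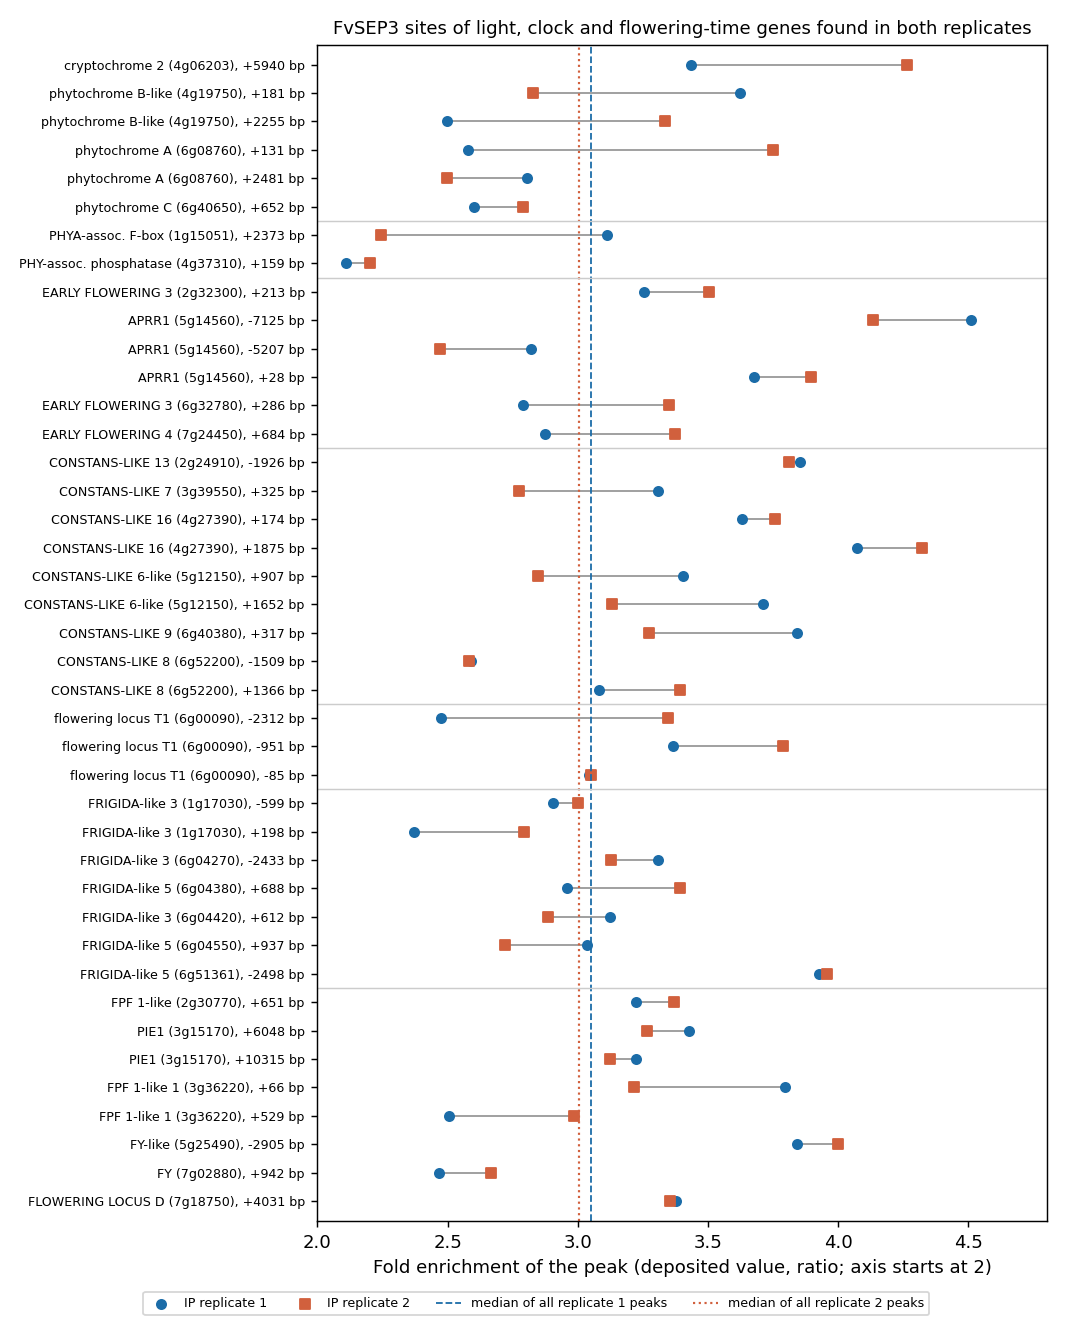
Fold enrichment (x axis, deposited ratio, starting at 2) of the 41 sites found in both lists, 1 row per site, with the gene and its distance from the gene start in replicate 1. Circles are IP replicate 1, squares IP replicate 2, and the vertical lines are the medians of all peaks, 3.05 and 3.004. Of the 41 sites, 19 lie above the median in both lists (46.3%, against 41.1% of all sites) and 10 lie below it in both, a count not made over all sites.

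Of the photoreceptor genes, all 3 phytochromes found had a site in the 5' UTR, where 5.33% of all genes with a peak had one. None of these 3 kept any site with peaks at or above the median fold enrichment of their list. The same held at a −log10 q of at least 10. Of all genes with a peak, 27.3% and 26.1% kept one. Phytochrome A, the receptor of very weak and of far-red light, has its gene FvH4_6g08760 on chromosome 6. Its 5' UTR peak ran from 5215543 to 5215812 in replicate 1 and from 5215644 to 5215943 in replicate 2, at 131 and 96 bp inside the gene start. Fold enrichment there was 2.58 in replicate 1 and 3.75 in replicate 2, the widest gap of any member site at 1.17. The peak thus stood low in one list, in the top 82.2%, and high in the other, in the top 11.3%. A second site of the gene lay in exon 2 of 5, from 5212466 to 5212787 in replicate 1, with values of 2.80 and 2.50.

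Phytochrome B, the main receptor of red light in green plants, is represented by the phytochrome B-like FvH4_4g19750 on chromosome 4. Its 5' UTR site, from 23293222 to 23293482 in replicate 1, lay 181 and 164 bp inside the start, with values of 3.62 and 2.83. Here replicate 1 was the higher, the opposite of phytochrome A. A further site in exon 1 of 4, from 23295348 to 23295614, had values of 2.50 and 3.33. Phytochrome A and phytochrome B-like thus each had 1 site in the 5' UTR and 1 in an exon. The deposited distances of the exon sites were between 2247 and 2536 bp. For phytochrome A the distances of the 5' UTR and exon sites refer to different transcripts, so the spacing of the sites cannot be compared from them. Replicate 1 held a promoter peak of phytochrome B-like as well, at −1203 bp with 2.46, with no counterpart in replicate 2. Phytochrome C, a further receptor of red and far-red light, had 1 site, in the 5' UTR of FvH4_6g40650 on chromosome 6 from 32100350 to 32100578. That site lay 652 and 603 bp inside the start, the farthest of the member 5' UTR sites. Its values of 2.60 and 2.79 were below the median of both lists.

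Cryptochrome 2, a blue-light receptor that promotes flowering by protecting CONSTANS, had the strongest photoreceptor site by mean rank. The peak of FvH4_4g06203 lay on chromosome 4 from 5569860 to 5570119 in replicate 1, with values of 3.44 and 4.26. It was classed as intergenic, 5940 bp from the gene start on the downstream side in replicate 1 and 5945 bp in replicate 2. Replicate 2 placed it in the top 2.74% of its list and replicate 1 in the top 25.6%. Cryptochrome DASH, FvH4_2g30661, of a branch known for DNA repair more than for signalling, had a peak in replicate 2 alone. It lay in the promoter on chromosome 2 from 23715605 to 23715819, 109 bp upstream, at 2.91.

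Light signalling partners had the lowest values of the 7 groups. The phytochrome A-associated F-box protein, FvH4_1g15051, is named after a protein that dampens phytochrome A signalling in Arabidopsis. Its site in intron 1 of 1, on chromosome 1 from 8484956 to 8485165 in replicate 1, had values of 3.11 and 2.24. This site was lost at both stricter overlaps, 50% of both peaks or midpoints within 100 bp. The phytochrome-associated serine/threonine-protein phosphatase, FvH4_4g37310, had a site in intron 1 of 9 on chromosome 4 from 33832461 to 33832751, at 2.11 and 2.20, the lowest of all member sites. Phytochrome kinase substrates, membrane-associated proteins of phototropism, appeared in 1 list each. Substrate 1, FvH4_4g31450, had a 5' UTR peak at 2.76 and substrate 4, FvH4_4g10470, an intergenic peak at 3.08, both in replicate 2. Substrate 3, FvH4_5g15090, had a promoter peak at 2.14 in replicate 1.

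Among clock genes, APRR1 had the site that ranked first of the 41 when fold-enrichment ranks of both lists were averaged. Its gene is FvH4_5g14560 on chromosome 5. Ranked by −log10 p, it came after the exon site of CONSTANS-LIKE 16. APRR1, also called TOC1, is an evening repressor at the core of the Arabidopsis clock. The site lay far upstream, from 8260059 to 8260281 in replicate 1 and from 8260049 to 8260284 in replicate 2, at −7125 and −7137 bp. Its fold enrichment was 4.51 and 4.13, or 4.32 ± 0.267 (SD, n = 2), in the top 1.40% and 3.93% of the lists. A second site at the gene start, from 8252900 to 8253119 in the 5' UTR at 28 and 4 bp, had 3.68 and 3.90. Between them a weaker site at −5207 and −5073 bp had 2.82 and 2.47. Both strong sites were above the median of each list, and the middle one was below it. Replicate 2 also held a peak in exon 6 of 6 of this gene, from 8248525 to 8248788 at 3.09, which the authors assigned to the neighbouring FvH4_5g14550.

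The other pseudo-response regulators of the lists, APRR5 and APRR7, act earlier in the day than APRR1 and were found in replicate 2 alone. APRR5, FvH4_7g32920, had a 5' UTR peak at 181 bp with a value of 2.90. APRR7, FvH4_6g15060, had 3 peaks, of 3.28 in an intergenic position, 3.14 in exon 8 of 9 and 2.37 in the 5' UTR. The intergenic peak lay 3215 bp from the start on the downstream side. The 5' UTR peak, in the top 91.0% of its list, had a distance of 887 bp. That distance refers to a different transcript from those of the other peaks, so they cannot be compared. All 3 APRR genes thus had a 5' UTR peak in replicate 2, as did 27.3% of the 44 members and 9.88% of all genes with a peak. Only 1 of the 3, APRR1, had it in both lists, where 5.33% of all genes had a 5' UTR site.

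EARLY FLOWERING 3 and EARLY FLOWERING 4 are partners in the evening complex, which represses growth and clock genes at night. FvH4_2g32300, described as EARLY FLOWERING 3, had a 5' UTR site on chromosome 2 from 24523236 to 24523788 in replicate 1, at 3.25 and 3.50. This site was lost when overlap had to cover 50% of both peaks, or midpoints had to lie within 100 bp. The second gene of that description, FvH4_6g32780, had a site in intron 1 of 3, at 2.79 and 3.35. In both genes the site lay between 213 and 286 bp inside the start. EARLY FLOWERING 4, FvH4_7g24450, had its site in the 3' UTR, at 2.87 and 3.37. Replicate 1 held a further 3' UTR peak of that gene at 2.95.

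CONSTANS family proteins carry B-box zinc fingers and a CCT domain, and members differ in whether they promote or delay flowering. Sites were found at 6 of the 9 genes, where 58.6% of all genes with a peak had one. There were 9 sites in all, with a median mean fold enrichment of 3.42, against 3.17 over the 41 member sites and 3.13 over all 13336 sites. CONSTANS-LIKE 16, FvH4_4g27390 on chromosome 4, had the next site by mean rank of fold enrichment and the first by −log10 p, in exon 2 of 2. Replicate 1 listed it from 28409555 to 28409773 with 4.07. Replicate 2 listed 1 long peak from 28409536 to 28410394 with 4.32, which also covered a separate replicate 1 peak of 3.59. The merged list of the authors held no entry for this site. The gene had another site in its 5' UTR, from 28411214 to 28411499 in replicate 1, at 3.63 and 3.76.

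CONSTANS-LIKE 13, FvH4_2g24910, had its only site near the outer limit of the promoter, at −1926 and −1978 bp on chromosome 2 from 20256457 to 20256765. The values were 3.85 and 3.81, or 3.83 ± 0.0297 (SD, n = 2), so the replicates differed little. CONSTANS-LIKE 9, a repressor of flowering in Arabidopsis, had a 5' UTR site at FvH4_6g40380 on chromosome 6 from 31931709 to 31931974, at 3.84 and 3.27. CONSTANS-LIKE 6-like, FvH4_5g12150, had sites in both exons, at 3.40 and 2.85 in exon 1 and at 3.71 and 3.13 in exon 2. Replicate 1 was the higher at each. CONSTANS-LIKE 7, FvH4_3g39550, had a site in exon 1 of 3 at 3.31 and 2.77. It too was lost at both stricter overlaps.

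CONSTANS-LIKE 8, FvH4_6g52200 on chromosome 6, had a site in exon 2 of 3 at 3.08 and 3.39. Its promoter site, from 38527007 to 38527263 in replicate 1 at −1509 and −1625 bp, had 2.59 and 2.58. That promoter site stood low in both lists, at the top 81.6% and 79.8%. Its distances refer to a different transcript from those of the exon site, so its place in the promoter holds for that transcript only. The remaining genes had no overlapping peaks. CONSTANS-LIKE 1, FvH4_7g31700, had a promoter peak of 3.04 and the putative CONSTANS-LIKE 11, FvH4_6g43570, an exon peak of 2.39, both in replicate 2. CONSTANS-LIKE 14-like, FvH4_7g05191, had peaks in both lists that came no closer than 2419 bp.

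Flowering locus T1, FvH4_6g00090 on chromosome 6, was the gene with the most promoter sites among the members. Its description comes from a protein of cultivated strawberry. All 3 of its peaks in replicate 1 overlapped its 3 peaks in replicate 2, in a series upstream of the start. The nearest site ran from 91860 to 92272 in replicate 1 and from 92065 to 92343 in replicate 2, at −85 and −79 bp, with 3.04 and 3.05. The middle site ran from 91231 to 91475 and from 91246 to 91463, at −951 and −922 bp, with 3.36 and 3.79, or 3.58 ± 0.299 (SD, n = 2). The outer site ran from 89583 to 89995 and from 89553 to 89976, with 2.47 and 3.35. Its deposited distances, −2312 and −2635 bp, differed by 323 bp, the largest such gap of the 41 sites. The middle site was the strongest in each list, and the nearest one had the most even pair of values.

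**Figure D2:**
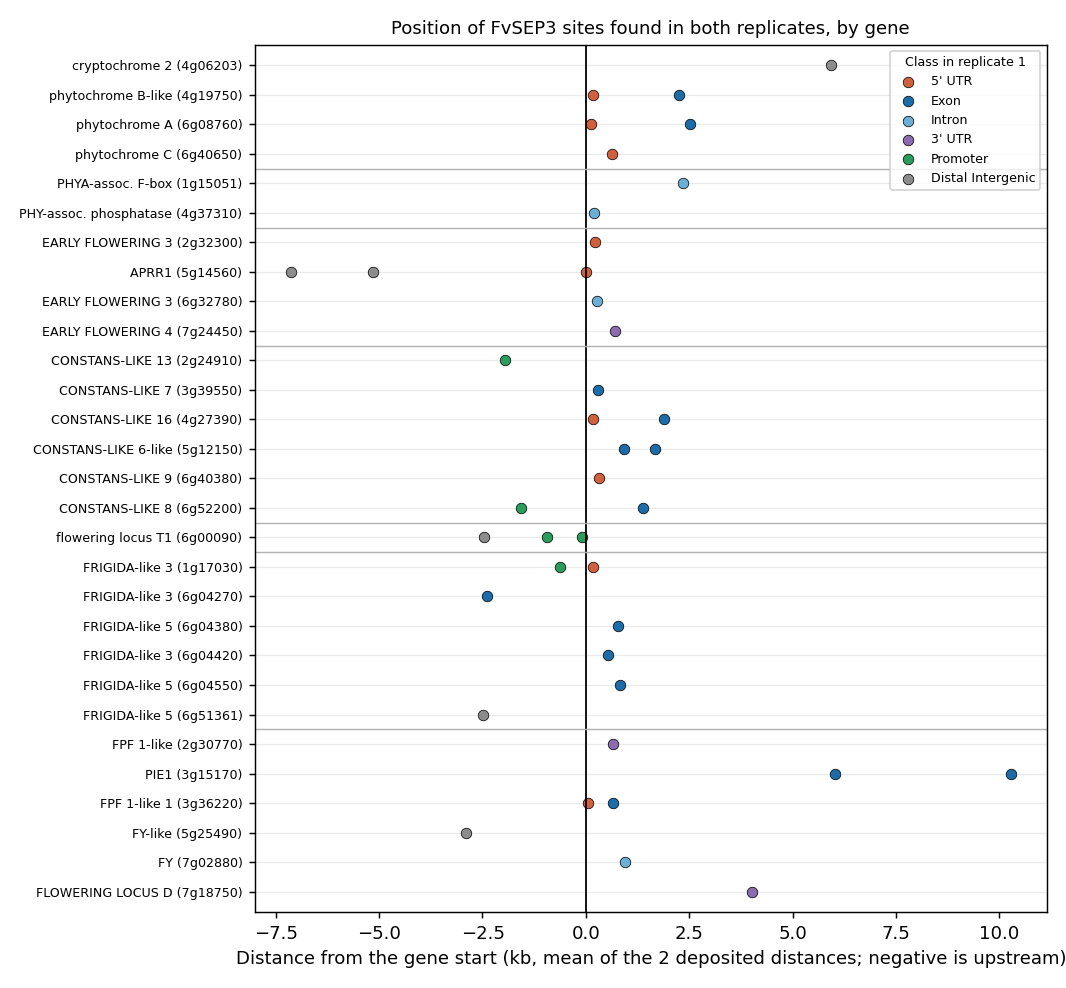
Distance of each site found in both lists from the start of its assigned gene (x axis, kb, mean of the 2 deposited distances, negative upstream) for the 29 genes with a site. Each point is 1 site, coloured by its position class in replicate 1; flowering locus T1 has its 3 sites upstream of the start, and APRR1 has 1 at the start and 2 farther upstream, at −5207 and −7125 bp in replicate 1.

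FRIGIDA is a coiled-coil protein that raises FLOWERING LOCUS C in Arabidopsis, and FRIGIDA-like proteins are its relatives. Sites were found at 6 of the 9 genes, where 58.6% of all genes with a peak had one. The strongest was at FvH4_6g51361, FRIGIDA-like protein 5, in an intergenic position at −2498 and −2464 bp on chromosome 6. It ran from 38085380 to 38086484 in replicate 1, a length of 1105 bp against a median of 303 bp for all peaks of that list. Its values of 3.93 and 3.96, or 3.94 ± 0.0225 (SD, n = 2), were nearly equal. FRIGIDA-like protein 3, FvH4_1g17030 on chromosome 1, had a promoter site from 9843687 to 9844007 in replicate 1, at 2.90 and 3.001, and a 5' UTR site from 9845021 to 9845253 at 2.37 and 2.79.

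A run of 4 FRIGIDA-like genes within 189.5 kb on chromosome 6, from 2324356 to 2513862, held 10 peaks, all of them in exons, 3 of these in exons of a neighbouring gene. FvH4_6g04380, FRIGIDA-like protein 5, had a site in exon 1 of 4 from 2386521 to 2387226 in replicate 1, at 2.96 and 3.39. FvH4_6g04420, FRIGIDA-like protein 3, had one in exon 1 of 4 from 2410134 to 2410575, at 3.12 and 2.89. FvH4_6g04550, FRIGIDA-like protein 5, had one in exon 2 of 5 from 2513145 to 2513800, at 3.03 and 2.72. In these 3 genes the sites lay between 463 and 937 bp from the start. The site assigned to FvH4_6g04270, FRIGIDA-like protein 3, lay from 2324356 to 2324855 in exon 4 of 4 of its neighbour FvH4_6g04261, at 3.31 and 3.13. Replicate 2 also listed a peak in exon 1 of 3 of FvH4_6g04270 itself, at 3.78. The 10 peaks, most of them a pair for 1 site, had a median length of 547.5 bp, against 317 bp for all exon peaks. These genes are described as copies of a few FRIGIDA-like proteins. Whether reads were shared between them is uncertain, as no mapping settings were held.

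The other FRIGIDA family genes had no overlapping peaks. FvH4_4g09570, FRIGIDA-like protein 4a, had intergenic peaks of 2.90 in replicate 1, on chromosome 4 from 11356587 to 11356810, and 3.67 in replicate 2, from 11356066 to 11356302. They were 284 bp apart. FvH4_4g15550, of the same description, had peaks in replicate 2 alone, one in the promoter from 19272943 to 19273159 at 2.55 and one in an intergenic position at 2.95. The truncated FRIGIDA-like protein 1, FvH4_3g24000 on chromosome 3, had a replicate 1 peak at 3.41 upstream, from 17066823 to 17067081, and a replicate 2 peak at 2.42 in intron 1 of 2, from 17070446 to 17070843.

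Among the other flowering-time regulators, the autonomous-pathway factors lower FLOWERING LOCUS C through RNA processing and histone marks. FY, a polyadenylation factor, was represented by a pair of genes. The FY-like FvH4_5g25490 had an intergenic site at −2905 bp in both lists, on chromosome 5 from 16961552 to 16961786 in replicate 1, with 3.84 and 4.0006, in the top 9.96% and 5.92% of the lists. FvH4_7g02880, described as FY, had a weaker site in intron 2 of 17 at 2.47 and 2.67. FLOWERING LOCUS D, a histone demethylase homologue, had a 3' UTR site at FvH4_7g18750, with 3.38 and 3.35. The RNA-binding FCA and FPA had 1 peak each, FCA (FvH4_4g20210) at 2.44 in replicate 1 and FPA (FvH4_7g04880) at 2.44 in replicate 2.

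PHOTOPERIOD-INDEPENDENT EARLY FLOWERING 1, the ATPase of a complex that deposits the histone variant H2A.Z, had sites deep in its gene, FvH4_3g15170. Exon 9 of 20 had 3.43 and 3.27, and exon 15 of 20 had 3.22 and 3.12. Flowering-promoting factor 1 is a small protein that advances flowering when in excess. Of its relatives, FvH4_3g36220 had a 5' UTR site on chromosome 3 from 31037646 to 31037878, at 3.79 and 3.21. A second site of that gene, at 2.51 and 2.98, was classed as exon in replicate 1 and intergenic in replicate 2, the only member site whose class differed. FvH4_2g30770 had a 3' UTR site at 3.22 and 3.37, and FvH4_4g17910 had an intergenic peak in replicate 1 alone at 2.61.

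Across roles, the 5' UTR was the position with the widest gap to the lists as a whole, a pattern chosen for description after the position classes had been seen. Of the 41 sites, 9 were in a 5' UTR in both lists (22.0%, against 7.43% of all sites). They belonged to 9 genes, or 20.5% of the 44, against 5.33% of all genes with a peak. The genes were those of phytochrome A, phytochrome B-like, phytochrome C, EARLY FLOWERING 3 (FvH4_2g32300), APRR1, CONSTANS-LIKE 9, CONSTANS-LIKE 16, FRIGIDA-like protein 3 (FvH4_1g17030) and flowering-promoting factor 1-like protein 1. Their sites lay 4 to 652 bp from the start. In the lists taken singly, the 5' UTR held 16.7% of member peaks in replicate 1 and 19.4% in replicate 2, against 9.04% and 8.50% of all peaks. With 50% overlap there were 8 such genes (18.2%, against 4.90% of all genes). With midpoints within 100 bp there were 7, a setting not counted over all genes. With peaks at or above the median fold enrichment of their list, 5 of the 9 genes kept such a site (11.4%, against 2.47% of all genes). None of the phytochromes was among these 5. UTR lengths were not analysed here, so their part in these shares was not tested.

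The deposited promoter class held a lower share of member sites than of all sites (12.2%, against 18.8%). For counts of genes, promoters were taken as the 2000 bp before the gene start by the deposited distance. Of the 44 genes, 4 had a promoter site in both lists (9.09%, against 13.3% of all genes), namely flowering locus T1, CONSTANS-LIKE 13, CONSTANS-LIKE 8 and FRIGIDA-like protein 3 (FvH4_1g17030). With a promoter of 1 kb the number was 2 (4.55%, against 8.53% of all genes). With 3 kb it was 7 (15.9%, against 16.2%), and with 2 kb plus the gene's first 500 bp it was 14 (31.8%, against 26.6%), so the order of the shares depends on the window. Exons held 13 sites (31.7%, against 23.1%), introns 4 (9.76%, against 15.1%), 3' UTRs 3 (7.32%, against 3.43%) and intergenic positions 6 (14.6%, against 21.2%). Neither these differences nor that of the 5' UTR was tested, and with 41 sites each site is 2.44% of the total.

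**Figure D3:**
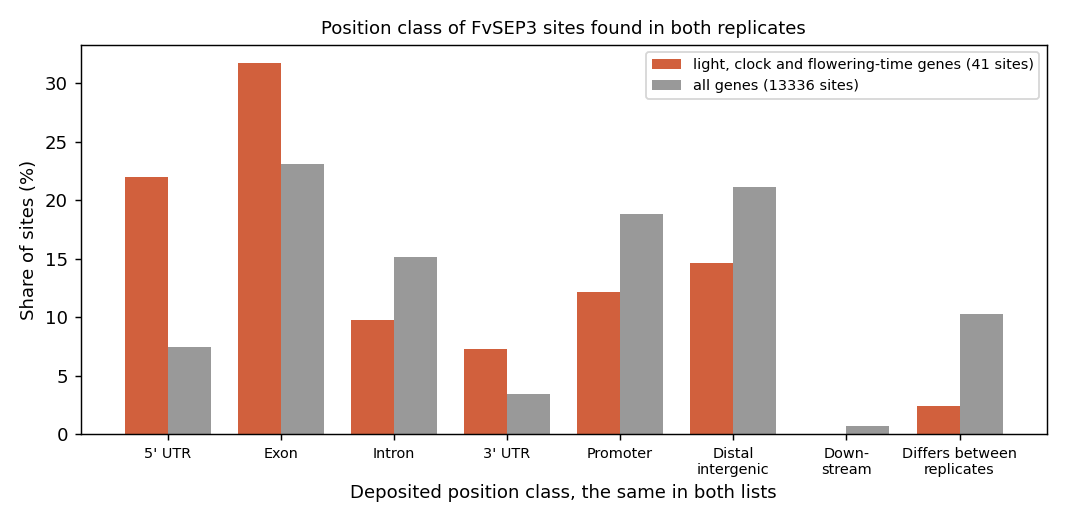
Share of sites (y axis, %, from 0) in each deposited position class for the 41 sites of the light, clock and flowering-time genes and for all 13336 sites, counted where both lists gave the same class. The 5' UTR bar is 22.0% against 7.43% and the promoter bar 12.2% against 18.8%.

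The member sites were not stronger than others as a whole, but several stood high in both lists. The median of the mean fold enrichment was 3.17 over the 41 sites and 3.13 over all sites. Those in the top 10% of both lists numbered 5 (12.2%, against 5.26% of all sites), at APRR1 (−7125 bp), CONSTANS-LIKE 16 (exon 2), FRIGIDA-like protein 5 (FvH4_6g51361), FY-like and CONSTANS-LIKE 13. None of these 5 was a photoreceptor or a light signalling partner, roles that held only 6 and 2 of the 41 sites. Replicate 1 had the higher value at 18 of the 41 sites (43.9%, against 50.2% of all sites). The median gap between replicates was 0.311, against 0.342 over all sites. A gap over 0.5, not counted over all sites, was seen at 12 member sites, among them both those of phytochrome B-like, the 5' UTR site of phytochrome A and that of cryptochrome 2. For these the order among members rests on which list is read. The deposited distances of a site differed between lists by a median of 35 bp, as over all sites.

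No site was found for 15 members (34.1%, against 41.4% of all genes with a peak). Of the 44 genes, 3 had peaks in both lists that did not overlap (6.82%, against 4.17%), 3 were in replicate 1 alone (6.82%, against 14.8%) and 9 were in replicate 2 alone (20.5%, against 22.4%). Member peaks outside sites were weaker than those within, with medians of 2.66 against 3.22 in replicate 1 and 2.91 against 3.27 in replicate 2. Over all genes the same medians were 2.90 against 3.12 and 2.85 against 3.12.

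Other genes described in terms of light signalling, the clock and flowering were collected by a further list of words, such as HY5, COP1, REVEILLE, adagio, UVR8, LEAFY and FAR-RED. The descriptions were taken as deposited, and the roles they name were not checked for these genes. UVR8 and FAR-RED gave 8 genes each. The list gave 47 genes, of which 27 had a site (57.4%, against 58.6% of all genes), and 14 had one in the promoter (29.8%, against 13.3%). A single one, 2.13%, had a 5' UTR site. The strongest site was assigned to FvH4_c17g00081, an APETALA 2-like gene on contig_17. It lay far upstream in an intergenic position, at −12923 and −12927 bp, with 5.23 and 5.05. The family of APETALA 2 regulates floral organs and flowering time. Of the 8 genes described as UVR8 or UVR8-like, after the receptor of ultraviolet B, 5 had a site, where 58.6% of all genes had one. An intergenic site of FvH4_1g25000, 8946 and 8974 bp from the gene start on the downstream side, had 4.12 and 4.08. A promoter site of FvH4_1g13050 had 3.70 and 3.59, and a site of the UVR8-like FvH4_6g13080 had 3.97 and 3.31. Both adagio genes, blue-light F-box proteins that set the stability of clock components, had sites. That of FvH4_4g07890 (adagio protein 1) was intergenic, at −5496 and −5473 bp, with 3.89 and 3.64. Another APETALA 2-like gene, FvH4_5g27942, had a promoter site at 4.51 and 3.41. No site was found for the LHY-like gene or for 3 B-box zinc finger genes, each with a peak in 1 list.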

How the data were processed

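DAP-seq peaks of 2 IP replicates were taken from 3 deposited lists, 1 per replicate and 1 merged by the authors. No list of the input library was used here. The submitters' processing notes name BWA and MACS2; their versions and settings, and the genome build, are not given in the sources used here. Per the file headers, peaks were listed per replicate with a fold enrichment (a ratio), −log10 p-value and −log10 q-value. The position class, assigned gene and distance to the gene start are also as the authors deposited them. The point of a peak from which distance was taken is not stated.

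Overlaps, sites and counts were computed with Python 3.11.15 and pandas 2.3.3. The code recovered known overlaps on simulated data and gave the same 13597 overlapping replicate 1 peaks as bedtools 2.31.1, of which 13451 were assigned to the same gene. Where several peaks formed 1 site, the highest of each list was used. Fold enrichment was used only descriptively, for ranks inside each list, and the SD is over the 2 deposited values. No significance test was run, since there is 1 group of replicates. The members and word lists were chosen with earlier results of these data known.

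Given with positions were the 10 best members by mean rank of fold enrichment, the 2 best of each role, those with a promoter site, and those that are a phytochrome, cryptochrome, flowering locus T or FRIGIDA family gene. Other members, phytochrome kinase substrates included, were named without positions. Of the 44 genes, 31 matched the reference table by protein identifier; it gave no names used here. A planned search for the CArG box was not run, as no sequence was used here. Alternatives were stricter peaks, stricter overlap, the merged list, single replicates, other promoters and the removal of 2 members (cryptochrome DASH and the phosphatase, picked after the files were read).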

Additional observations from a re-analysis of the deposited data

How the results depend on the processing

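With peaks at or above the median fold enrichment of their list, members with a site fell from 29 to 16 (36.4%, against 27.3% of all genes). Members with a promoter site fell from 4 to 2 (4.55%, against 5.63%). Genes of the further word list with a site fell from 27 to 11 of 47, beside the same 27.3% of all genes. The median fold enrichment of member peaks went from 3.09 to 3.39 and their promoter share from 15.4% to 10.8%. At a −log10 q of at least 10 the same 3 counts were 16 (36.4%, against 26.1%), 2 (4.55%, against 5.41%) and 10 of 47. The median fold enrichment there was 3.39. These settings keep fewer peaks by construction. On single replicates, promoter members numbered 6 (13.6%, against 21.0% of all genes) to 10 (22.7%, against 23.4%). Genes of the further list numbered 32 in replicate 1 (68.1%, against 77.6% of all genes) and 43 in replicate 2 (91.5%, against 85.2%). Promoters of 1 kb, of 3 kb and of 2 kb with the first 500 bp of the gene gave 2, 7 and 14 members (4.55%, 15.9% and 31.8%, against 8.53%, 16.2% and 26.6%). In the merged list the median was 3.17. The gene body share of members there was 72.5%, where the mean of their shares in the single lists was 64.0%. Their 5' UTR share was 22.5%, where the single lists gave 18.0%. The merged list held 40 member entries and 40 member sites had one, whereas the single lists also count peaks outside sites. The cause of the difference was not tested, and merged shares over all genes are not given here. Overlap of 50% left 26 members with a site (59.1%, against 54.1% of all genes). Midpoints within 100 bp also left 26, a setting not counted over all genes. Ranking by −log10 p kept 8 of the 10 leading members, with CONSTANS-LIKE 16 before APRR1. Letting the overlapping peak belong to any gene, an alternative chosen after seeing the data, gave 29 members. No paired analysis was possible because the replicate numbers lie within 1 group. Depth is unknown, so a peak missing from 1 list cannot be told from one not detectable there.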
